A study of Homo sapiens with 4 samples.

Results

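Desmosomes are cell junctions that tie the keratin filaments of neighbouring epithelial cells together. Their transcripts were examined here in MCF10A, an established line of human breast epithelium that does not form tumours, after delivery of Zeb1 or Snail, which push epithelial cells towards a mesenchymal state, or of Ovol2, which favours the epithelial state. The genes were chosen by name as the rows of the 3 deposited tables for DSP, DSC2, DSC3, DSG2, DSG3, PKP1, PKP2, PKP3, PPL and PERP. All 10 were found among 25317 gene symbols. Of these, 9 reached 1 FPKM (fragments scaled to transcript length and library size) in each of the 4 libraries, and the tenth, PKP1, stayed below it in every library.

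The groups were cells infected with a lentivirus that carried Zeb1, Snail, Ovol2 or no insert (the empty vector), with 1 library in each group. All groups, the empty vector included, were grown with horse serum, epidermal growth factor, cholera toxin and insulin, carried the fluorescent marker of the pHIV-ZsGreen vector and were sorted for it 6 days after infection. The promoter that drives the inserts and the number of cultures or clones behind each library are not given in the sources used. With 1 library a group there is no spread between replicates, so the differences below have no replicate check and no p-value, and they describe these libraries. The 3 comparisons with the empty vector share that 1 library, and their values for each gene stand side by side for that reason. In bulk RNA, fewer cells that express a gene and less of its RNA per cell cannot be told apart.

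In a desmosome, the desmosomal cadherins (desmogleins and desmocollins) span the membrane and bind those of the next cell. Plakoglobin (JUP) and the plakophilins bind the cadherin tails inside the cell, and the plakin desmoplakin (DSP) links them to keratin filaments. Simple epithelia make DSG2, DSC2 and PKP2 among others, whereas stratified epithelia add DSG3, DSC3, DSG1, DSC1 and PKP1 in layers. Basal-type mammary cells such as MCF10A share part of that stratified set. PERP is a small membrane protein that desmosomes of stratified epithelia in the mouse need, and periplakin (PPL) is a plakin of the cornified envelope and of desmosomes.

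Promoter windows ran from 250 bases before to 50 bases after the annotated start (RefSeq, GRCh38.p14). There were 8 windows for 7 of the 10 genes, and none for PKP2, PKP3 or PPL. They were searched on both strands for CAGGTG or its reverse complement CACCTG, the core of the E-box that ZEB and SNAIL proteins bind, and for CCGTTA or its reverse complement TAACGG, a core described for OVO-like proteins. A CAGGTG match lay in 3 of the 8 windows, those of DSP, DSG2 and 1 of the DSC2 starts, against 20.6% of all 35116 windows in the table. CCGTTA was found in 0 of the 8 and in 3.07% of all windows. DSP and DSG2 are shown because each holds 2 matches, in capitals. PERP is shown because it holds none and was the only gene of the set called higher in any comparison with the empty vector. The windows of DSC3, DSG3 and PKP1 also held no match. The windows are DSP at chr6:7541421-7541720 on the plus strand, DSG2 at chr18:31497927-31498226 on the plus strand and PERP at chr6:138107370-138107669 on the minus strand, each written 5′ to 3′ along its gene.
DSP: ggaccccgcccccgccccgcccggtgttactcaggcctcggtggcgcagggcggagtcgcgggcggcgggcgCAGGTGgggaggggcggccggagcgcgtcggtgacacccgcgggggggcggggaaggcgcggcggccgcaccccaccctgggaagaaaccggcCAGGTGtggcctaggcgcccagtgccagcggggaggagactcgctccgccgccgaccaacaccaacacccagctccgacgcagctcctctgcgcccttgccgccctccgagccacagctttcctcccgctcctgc
DSG2: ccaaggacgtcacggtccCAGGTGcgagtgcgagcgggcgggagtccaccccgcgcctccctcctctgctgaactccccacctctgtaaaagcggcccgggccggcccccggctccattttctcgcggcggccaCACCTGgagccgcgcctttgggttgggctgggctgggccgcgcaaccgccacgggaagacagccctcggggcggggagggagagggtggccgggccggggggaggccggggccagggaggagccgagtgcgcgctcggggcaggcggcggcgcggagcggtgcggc
PERP: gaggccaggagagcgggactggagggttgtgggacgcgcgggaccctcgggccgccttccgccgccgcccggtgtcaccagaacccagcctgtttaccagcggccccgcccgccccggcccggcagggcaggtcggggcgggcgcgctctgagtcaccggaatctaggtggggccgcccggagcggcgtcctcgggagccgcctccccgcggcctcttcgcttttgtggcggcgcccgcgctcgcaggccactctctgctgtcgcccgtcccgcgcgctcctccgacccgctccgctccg
The DSP matches started 178 and 85 bases before the annotated start, and those of DSG2 232 and 116 bases before it. The 3 windows held 77% (DSP), 76.7% (DSG2) and 77% (PERP) G and C, against a median of 58.7% over all windows, while that of DSG3 held 44%. A match is a description of letters and not of a binding site.

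The spacing of low values put sequencing depth at about 34300000 fragments in the Zeb1, 31600000 in the Snail, 24100000 in the Ovol2 and 29100000 in the empty vector library. RMRP and RPPH1, short RNAs of RNase complexes, held 22.1%, 18.7%, 40.6% and 24.6% of all FPKM in the same order. Of 8 epithelial and basal mammary markers, 8 reached 1 FPKM in the Zeb1, Ovol2 and empty vector libraries and 7 in the Snail library, where EPCAM stood at 0.683 FPKM. Of the 18 immune, endothelial, muscle and neural markers, CD14 reached 1 FPKM in the Zeb1 (17.0 FPKM), Ovol2 (2.49 FPKM) and empty vector (1.46 FPKM) libraries and VWF in the Ovol2 library (1.29 FPKM), and the others stayed below 1 FPKM in every library.

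The order of levels was led by PERP in every library. DSP was next in the Zeb1, Snail and empty vector libraries, and PKP3 stood just above it in the Ovol2 library, at 54.6 against 52.1 FPKM. The summed FPKM of the 10 genes was 383 in the Zeb1, 761 in the Snail, 1098 in the Ovol2 and 799 in the empty vector library. PERP alone made up 23.9%, 32.3%, 77.8% and 38.9% of these sums, and without it they were 291 in the Zeb1, 515 in the Snail, 244 in the Ovol2 and 488 in the empty vector library. The sums were not rescaled between libraries, so their order may depend on the scale. The words higher and lower are used as calls where FPKM + 1 differed by 2-fold or more (log2 ratio beyond 1 or -1), provided that one of the libraries compared held 1 FPKM. Folds in words are ratios of FPKM with nothing added.

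**Figure D1:**
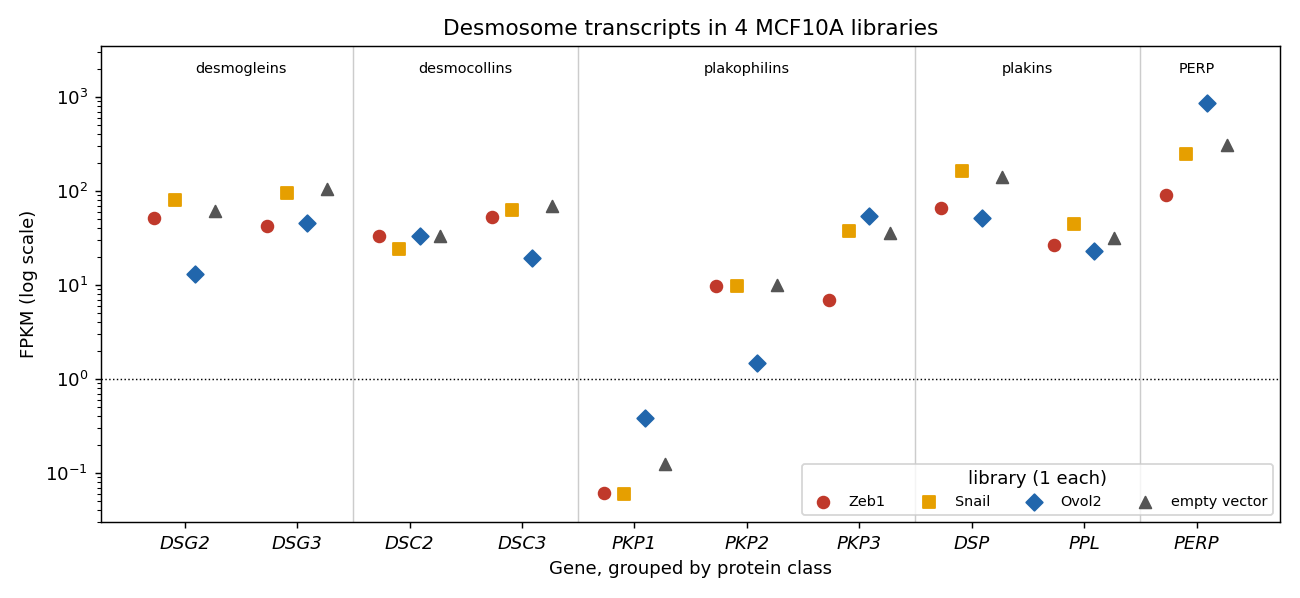
FPKM (log scale) of the 10 desmosome genes in the Zeb1, Snail, Ovol2 and empty vector libraries, 1 point per library, grouped by protein class, with a dotted line at 1 FPKM. PERP in the Ovol2 library is the highest point at 855 FPKM, PKP1 lies below the line in every library, and PKP2 stands at 1.49 FPKM in the Ovol2 library against 9.97 FPKM in the empty vector library.

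Zeb1 was delivered as a factor known to lower epithelial genes. In the Zeb1 library 4 of the 9 genes that passed were lower by 2-fold or more, namely PKP3, PERP, DSG3 and DSP, and 0 were higher. Among all 11922 genes that passed, 8.49% were lower and 4.52% higher. The median log2 ratio of the 9 was -0.36, beside -0.09 for all genes that passed, and each of the 9 was below 0 as reported. Rescaling without RMRP and RPPH1 put DSC2, PKP2, DSG2 and PPL above 0 (DSC2 0.30, PKP2 0.29, DSG2 0.08, PPL 0.06). DSC2 and PKP2 were above 0 also with centring (0.113 and 0.105) and with upper quartile scaling (0.069 and 0.057).

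PKP3, a plakophilin of nearly all living epidermal layers, had the lowest ratio, at 7.0 FPKM in the Zeb1 library against 35.4 FPKM in the empty vector library (log2 ratio -2.19, 5.06-fold lower). PERP stood at 91.6 against 311 FPKM (-1.75, 3.40-fold lower). DSG3, the desmoglein of basal layers of stratified epithelia, stood at 42.8 against 105 FPKM (-1.28). DSP, the plakin that every desmosome needs, stood at 66.2 against 142 FPKM (-1.09). This last value lay close to the threshold: after median centring it was -0.97, and values rescaled without RMRP and RPPH1 gave -0.78 for DSP and -0.98 for DSG3.

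The other 5 genes lay within 2-fold. DSC3, the basal desmocollin, was at 53.2 FPKM in the Zeb1 library against 68.6 FPKM in the empty vector library (-0.36). PPL was at 26.8 against 32.1 FPKM (-0.25), and DSG2, the desmoglein found in all desmosome-bearing tissues, was at 52.3 against 61.6 FPKM (-0.23). PKP2 and DSC2 were nearly level, PKP2 at 9.83 against 9.97 FPKM (-0.02) and DSC2 at 33.0 against 33.3 FPKM (-0.01).

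**Figure D2:**
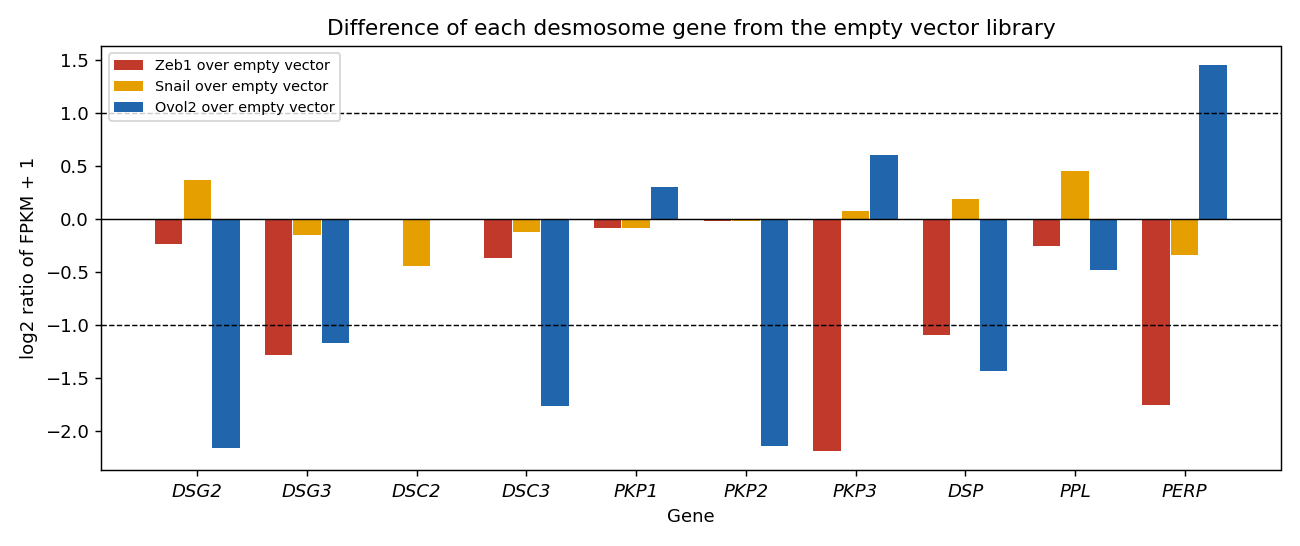
Log2 ratio of FPKM + 1 of each gene in the Zeb1, Snail and Ovol2 libraries over the empty vector library, with dashed lines at 2-fold. PKP3 lies at -2.19 with Zeb1 and 0.61 with Ovol2, PKP2 at -0.02 and -2.14, and every Snail bar is within the dashed lines.

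Snail is the other delivered factor that lowers epithelial genes. In the Snail library 0 of the 9 genes were lower by 2-fold or more and 0 higher, where 1.5% of all 11644 genes that passed were lower and 1.00% higher. The ratios ran from -0.44 for DSC2 to 0.45 for PPL, with a median of -0.01 beside 0.12 for all genes that passed. DSC2 stood at 24.3 FPKM in the Snail library against 33.3 FPKM in the empty vector library, and PPL at 44.3 against 32.1 FPKM. DSP was at 162 against 142 FPKM (0.19), DSG2 at 79.7 against 61.6 FPKM (0.37) and PKP3 at 37.4 against 35.4 FPKM (0.07). PERP was at 246 against 311 FPKM (-0.34), DSG3 at 94.6 against 105 FPKM (-0.15) and DSC3 at 62.9 against 68.6 FPKM (-0.12). PKP2 was nearly level at 9.87 against 9.97 FPKM (-0.01). None of the 9 passed 1.5-fold as reported either, but DSC2 was just past it with upper quartile scaling (-0.589).

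Ovol2 was delivered to cells that already have epithelial character. In the Ovol2 library 5 of the 9 genes were lower by 2-fold or more, namely DSG2, PKP2, DSC3, DSP and DSG3, and 1, PERP, was higher. Among all 11812 genes that passed, 25.1% were lower and 6.82% higher. The median of the 9 was -1.17, beside -0.51 for all genes that passed, and with upper quartile scaling these medians were -0.51 for the 9 and 0.03 for all genes.

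PERP stood at 855 FPKM in the Ovol2 library against 311 FPKM in the empty vector library (1.45, 2.75-fold higher). PKP3 was at 54.6 against 35.4 FPKM (0.61), within 2-fold, and passed it only with upper quartile scaling (1.26). DSC2 was level as reported, at 33.4 against 33.3 FPKM (0.01), but was at 0.65 with upper quartile scaling and 0.61 with the length correction. PPL was at 22.8 against 32.1 FPKM (-0.48), and at 0.17 with upper quartile scaling.

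The lower genes were 3 of the cadherins, PKP2 and DSP. DSG2 stood at 13.1 FPKM in the Ovol2 library against 61.6 FPKM in the empty vector library (-2.16, 4.72-fold lower), and PKP2 at 1.49 against 9.97 FPKM (-2.14, 6.70-fold lower). DSC3 was at 19.5 against 68.6 FPKM (-1.76, 3.52-fold lower). DSP was at 52.1 against 142 FPKM (-1.43) and DSG3 at 46.2 against 105 FPKM (-1.17). The calls of DSP and DSG3 ended with upper quartile scaling (-0.77 and -0.51) and with correction for transcript length (-0.88 and -0.85), and that of DSG3 also with centring (-0.997). DSG2, PKP2 and DSC3 remained lower and PERP higher by 2-fold or more in each of the 9 other settings that keep this threshold. Across 11211 genes the Ovol2 ratio followed transcript length (Spearman's rho -0.474), and the longest annotated transcripts of the 9 genes had a median of 5831 bases against 3488 over all genes that passed. The ratios to the empty vector followed length in the other direction with Zeb1 (rho 0.310) and Snail (rho 0.282), so length also bears on those values.

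The lowest gene, PKP1, the plakophilin of suprabasal layers, was at 0.0615 FPKM in the Zeb1, 0.0605 in the Snail, 0.385 in the Ovol2 and 0.125 in the empty vector library. These values correspond to about 11, 10, 51 and 20 fragments. Its Ovol2 value was 3.09 times that of the empty vector library, with a 95% exact binomial interval of 1.8 to 5.45 that covers counting error only. For Zeb1 the ratio was 0.494, with an interval of 0.202 to 1.02, so no difference was detectable at this depth.

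The factor libraries were also set directly against each other, which leaves the empty vector library out. Zeb1 against Snail had 4 of 9 genes lower (PKP3 -2.26, PERP -1.42, DSP -1.28 and DSG3 -1.13) and 0 higher, beside 6.43% lower and 2.34% higher of 11732 genes. Ovol2 against Zeb1 had 2 of 9 higher, PERP (3.21, 855 against 91.6 FPKM) and PKP3 (2.80, 54.6 against 7.0 FPKM), and 3 lower, PKP2 (-2.12), DSG2 (-1.92) and DSC3 (-1.40), beside 14.4% higher and 28.8% lower of 11991 genes. Between these libraries DSP was at 52.1 FPKM with Ovol2 and 66.2 FPKM with Zeb1 (-0.34), and DSG3 at 46.2 and 42.8 FPKM (0.11). Ovol2 against Snail had 1 of 9 higher, PERP (1.79), and 5 lower, DSG2 (-2.52), PKP2 (-2.13), DSC3 (-1.64), DSP (-1.62) and DSG3 (-1.02), beside 8.83% higher and 32.4% lower of 11843 genes. Several of these calls ended under another scaling. In Zeb1 against Snail DSG3 lost its call with centring (-0.88), upper quartile scaling (-0.89) and rescaling without RMRP and RPPH1 (-0.78), and DSP with that rescaling (-0.93). In Ovol2 against Zeb1 DSC3 lost it with upper quartile scaling (-0.84) and the length correction (-0.77). In Ovol2 against Snail DSG3 lost it with centring (-0.75), upper quartile scaling (-0.18) and the length correction (-0.63), DSP with upper quartile scaling (-0.78) and the length correction (-0.98), and DSC3 with upper quartile scaling (-0.82). Other calls were gained there: DSC2 became higher with upper quartile scaling (1.28) and the length correction (1.12), and PKP3 with upper quartile scaling (1.38). PPL became lower with rescaling without RMRP and RPPH1 (-1.13).

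Shares of a class within 1 library do not change with a scale applied to all genes of that library. They can change with a bias that follows transcript length, and no length correction was applied to them. The longest annotated transcripts had 12325 bases for DSC2 and 6978 for DSC3, and 4302 for PKP2 and 2809 for PKP3. Among the 4 desmogleins, DSG3 made up 45.0% of the summed FPKM in the Zeb1, 54.3% in the Snail, 74.2% in the Ovol2 and 63.0% in the empty vector library. DSG2 held 55% in the Zeb1, 45.7% in the Snail, 21.0% in the Ovol2 and 37.0% in the empty vector library, so it led DSG3 in the Zeb1 library alone. DSG1, the desmoglein of upper epidermal layers, held 4.49% in the Ovol2 library and 0.0192% or less in each of the others.

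Among the 3 desmocollins the order turned in the Ovol2 library. DSC2 held 63.0% there, beside 38.3% with Zeb1, 27.8% with Snail and 32.6% with the empty vector, and DSC3 held 36.8% with Ovol2, 61.7% with Zeb1, 72.1% with Snail and 67.3% with the empty vector. Plakophilins PKP1 to PKP3 ran to both extremes. PKP2 led with 58.2% in the Zeb1 library, held 20.9% in the Snail and 21.9% in the empty vector library, and was at 2.64% in the Ovol2 library, where PKP3 held 96.7%. The PKP3 to PKP2 ratio was thus 0.712 with Zeb1, 3.79 with Snail, 36.7 with Ovol2 and 3.55 with the empty vector.

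**Figure D3:**
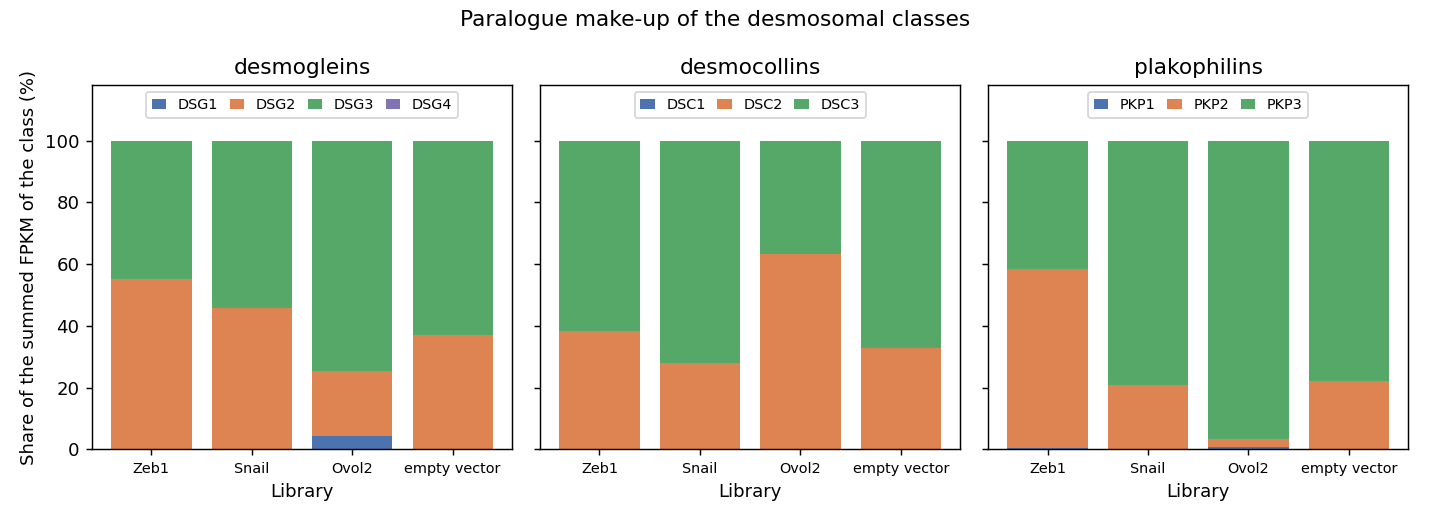
Share of the summed FPKM of the desmogleins, desmocollins and plakophilins PKP1 to PKP3 held by each gene, in percent, for the Zeb1, Snail, Ovol2 and empty vector libraries. DSC2 leads DSC3 in the Ovol2 library (63.0%), and PKP2 leads PKP3 in the Zeb1 library (58.2%).

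The class sums followed these shifts. All 7 desmosomal cadherins together stood at 181 FPKM in the Zeb1, 262 in the Snail, 115 in the Ovol2 and 269 in the empty vector library. The 3 plakophilins stood at 16.9, 47.3, 56.5 and 45.5 FPKM in the same order. As reported, this class was lowest in the Zeb1 library and the cadherins in the Ovol2 library. The plakins DSP, PPL and EVPL together stood at 95.2, 211, 80.8 and 181 FPKM. These class sums were not rescaled between libraries. For Ovol2 against Zeb1 the median of all genes was -0.43 as reported and 0.06 with upper quartile scaling, so the order of these libraries may depend on the scale. Relative to DSP in the same library, PERP was 1.38 times as high with Zeb1, 1.52 with Snail, 16.4 with Ovol2 and 2.19 with the empty vector.

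The desmosomal cadherins lie side by side on chromosome 18, in the order DSC3, DSC2, DSC1, DSG1, DSG4, DSG3 and DSG2 (RefSeq, GRCh38.p14). In the Ovol2 library neighbours in this cluster had unlike ratios: DSC3 was at -1.76 and DSC2 beside it at 0.01, and DSG1 was higher while DSG3 and DSG2 at the end of the cluster were lower. DSG1 passed the filter only through the Ovol2 library, where it is high, so a lower call was not open to it. The lower call of DSG3 ended with upper quartile scaling, the length correction and centring. DSG1 stood at 2.80 FPKM in the Ovol2 library against 0.0199 FPKM in the empty vector library, or about 340 against 3 fragments, a ratio of 140 with a 95% counting interval of 46.4 to 667. DSG4, the desmoglein of hair, was at 0.187 FPKM in the Ovol2 library (about 20 fragments), 0.0118 FPKM with Zeb1 and 0.00855 FPKM with Snail, and with the empty vector it was listed at 0. DSC1, a suprabasal desmocollin, stayed at 0.0939 FPKM or below in every library.

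The promoter windows of DSG3 and DSG1 shared a run of 20 bases, the longest among the 53 pairs of windows from different genes of the set with JUP and DSG1 added, where the next longest run had 12 bases. It is shown because it was the longest and both genes lie in the cluster, with DSG4 between them.
DSG3 and DSG1: aagtttttacctgggagcaa
The run started 78 bases before the annotated start of DSG3 and 120 bases before that of DSG1. It holds neither of the motifs searched.

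**Figure D4:**
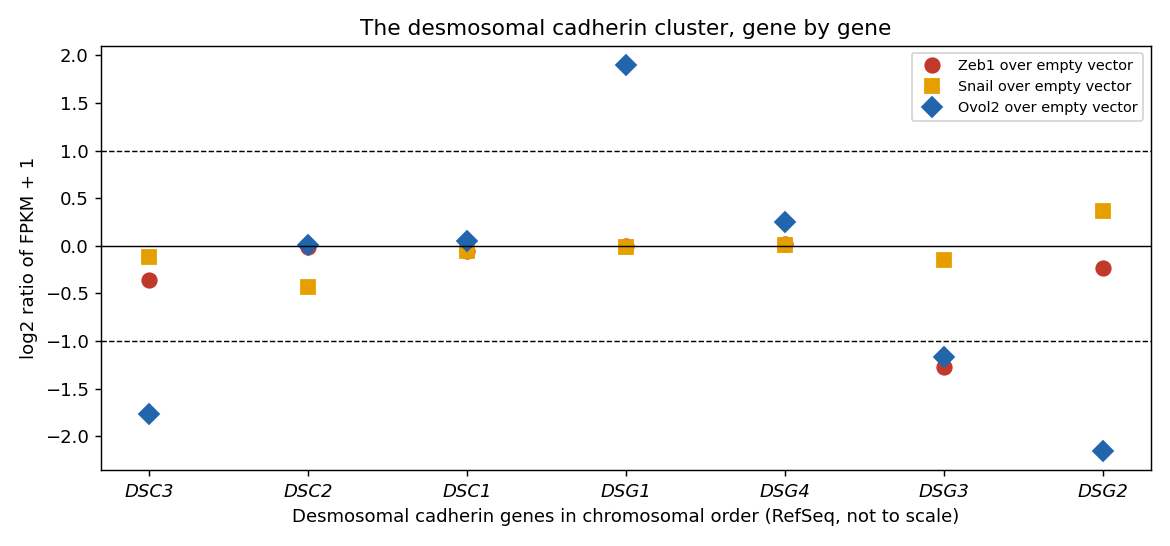
Log2 ratio of FPKM + 1 over the empty vector library for the 7 desmosomal cadherin genes in chromosomal order, not to scale, with dashed lines at 2-fold. With Ovol2, DSG1 lies at 1.90 and DSG2 at -2.16, while the Snail points are within the dashed lines and only DSG3 passes them with Zeb1 (-1.28). DSG1 passed the filter only through the Ovol2 library, where it is high.

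The library kit does not mark strand, so reads of antisense genes cannot be told apart from those of their partners. DSG2-AS1 was at 0.195 FPKM in the Zeb1, 0.415 in the Snail, 0.0172 in the Ovol2 and 0.351 in the empty vector library. DSCAS was at 0.292 FPKM with Zeb1, 0.0181 with Snail and 0.203 with Ovol2, and stood at 0 with the empty vector, and DSG1-AS1 was above 0 in the Ovol2 library alone (0.0519 FPKM). All of them were below 1 FPKM.

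Of 10 other genes of or near the desmosome, 7 passed the filter with Zeb1, and 2 were lower and 0 higher (median -0.71), beside 8.49% lower and 4.52% higher of all genes that passed. JUP, which encodes plakoglobin, stood at 29.2 FPKM in the Zeb1 library against 68.3 FPKM in the empty vector library (-1.20), and EVPL, the plakin envoplakin that pairs with periplakin, at 2.18 against 7.31 FPKM (-1.38). The call of JUP ended with rescaling without RMRP and RPPH1 (-0.90). With Snail 0 of 7 were called (median -0.26), beside 1.5% lower and 1.00% higher of all genes, and JUP was at 43.3 against 68.3 FPKM (-0.65). With Ovol2 8 passed, and 1 was lower and 1 higher (median -0.14), beside 25.1% lower and 6.82% higher of all genes that passed, so the counts are near the shares of all genes. CDSN passed each filter through the factor library alone, DSG1 through the Ovol2 library alone, and ARVCF through the empty vector library alone, as did KAZN with Zeb1 and Snail. The lower one was PKP4, an armadillo protein of several junctions, at 2.74 against 10.0 FPKM (-1.56), and the higher one was DSG1 (1.90).

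JUP itself was at 100.5 FPKM in the Ovol2 library against 68.3 FPKM in the empty vector library (0.55), and at 1.93 times the level of DSP in the Ovol2 library against 0.481 times in the empty vector library. JUP passed 2-fold with upper quartile scaling (1.21). CDSN, CTNND1, KAZN and ARVCF were not called on the log2 scale of FPKM + 1 in any comparison with the empty vector, a scale that understates changes of low genes. In plain FPKM KAZN was 4.39-fold lower with Zeb1, CDSN 2.56-fold higher with Ovol2 and ARVCF 2.43-fold lower with Ovol2, and with a pseudocount of 0.1 these 3 passed 2-fold (-1.77, 1.26 and -1.14). The log2 ratios of FPKM + 1 with Zeb1, Snail and Ovol2 were 0.41, 0.19 and 0.76 for CDSN, which encodes corneodesmosin of the cornified layer, and -0.26, -0.19 and -0.61 for CTNND1, the p120 catenin. They were -0.73, -0.26 and -0.02 for KAZN, a periplakin-binding protein, and -0.45, -0.40 and -0.58 for ARVCF, a relative of p120.

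The desmosome was next set beside the junctions most like it and the filaments it anchors, with no test of the difference. The counts and medians of these lists are as reported, without rescaling or correction for transcript length. The ratios followed that length with each factor (rho 0.310 with Zeb1, 0.282 with Snail and -0.474 with Ovol2). With Zeb1, where 8.49% of all genes that passed were lower and 4.52% higher, the adherens junction list (which shares CTNND1 with the list above) had 3 of 11 genes lower and 1 higher (median -0.19), the hemidesmosome list 6 of 9 lower (median -1.61) and the keratin list 8 of 10 lower (median -1.66), with KRT6B passing through the empty vector library alone. The ends of these lists were CDH1 (-2.48), CDH3 (-2.26), VCL (0.67) and the nectin PVRL3 (1.64) for adherens junctions, COL17A1 (-2.36), ITGB4 (-1.73), PLEC (-0.28) and DST (-0.02) for hemidesmosomes, and KRT15 (-3.36), KRT6B (-2.24), KRT8 (-0.38) and KRT10 (0.26) for keratins. With Snail, beside 1.5% of all genes lower and 1.00% higher, 0 of 11 adherens junction and 0 of 9 hemidesmosome genes were called (medians 0.08 and -0.03), while 2 of 10 keratins, KRT15 (-3.37) and KRT6B (-1.26), were lower (median -0.25). The ends of the Snail lists were otherwise PVRL1 (-0.73), CDH1 (-0.38), PVRL4 (0.48) and PVRL3 (0.79), LAMB3 (-0.40), ITGB4 (-0.20), CD151 (0.29) and LAMA3 (0.48), and KRT8 (0.52) and KRT10 (0.57).

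With Ovol2, where 25.1% of all genes that passed were lower and 6.82% higher, the adherens junction list had 4 of 11 lower and 1 higher (median -0.88, near those shares). It ran from CDH3 (-1.55) and VCL (-1.34) to PVRL2 (-0.28) and PVRL4 (2.47). PVRL3 (-1.16), 1 of the 4 lower, passed the filter only through the empty vector library, where it is high. The hemidesmosome list had 8 of 9 lower (median -2.63), from LAMA3 (-4.46) and COL17A1 (-3.04) to ITGA6 (-1.84) and CD151 (-0.39). Its longest annotated transcripts ranged from 1857 bases for CD151 to 22431 for DST, and those of the keratins from 1644 for KRT16 to 5237 for KRT15. The part of length in the difference between these lists was not tested. Keratins went both ways, 2 lower and 5 higher of 11 (median -0.13), but KRT1, 1 of the 5, passed the filter only through the Ovol2 library, where it is high. KRT5, the basal keratin partner of KRT14, stood at 215 FPKM in the Ovol2 library against 2929 FPKM in the empty vector library (-3.76). KRT14 stood at 58.5 against 195 FPKM (-1.72), while KRT16, a keratin of activated epidermis, stood at 965 against 41.4 FPKM (4.51). KRT15 was also higher, at 560 against 125 FPKM (2.16), as were KRT6B (3.40) and KRT10 (2.98). KRT1, the keratin of suprabasal layers, was at 11.7 FPKM with Ovol2 against 0.0148 FPKM with the empty vector (3.65), or about 693 against 1 fragments, a plain ratio of 794 with a 95% counting interval of 150 to 33098.

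**Figure D5:**
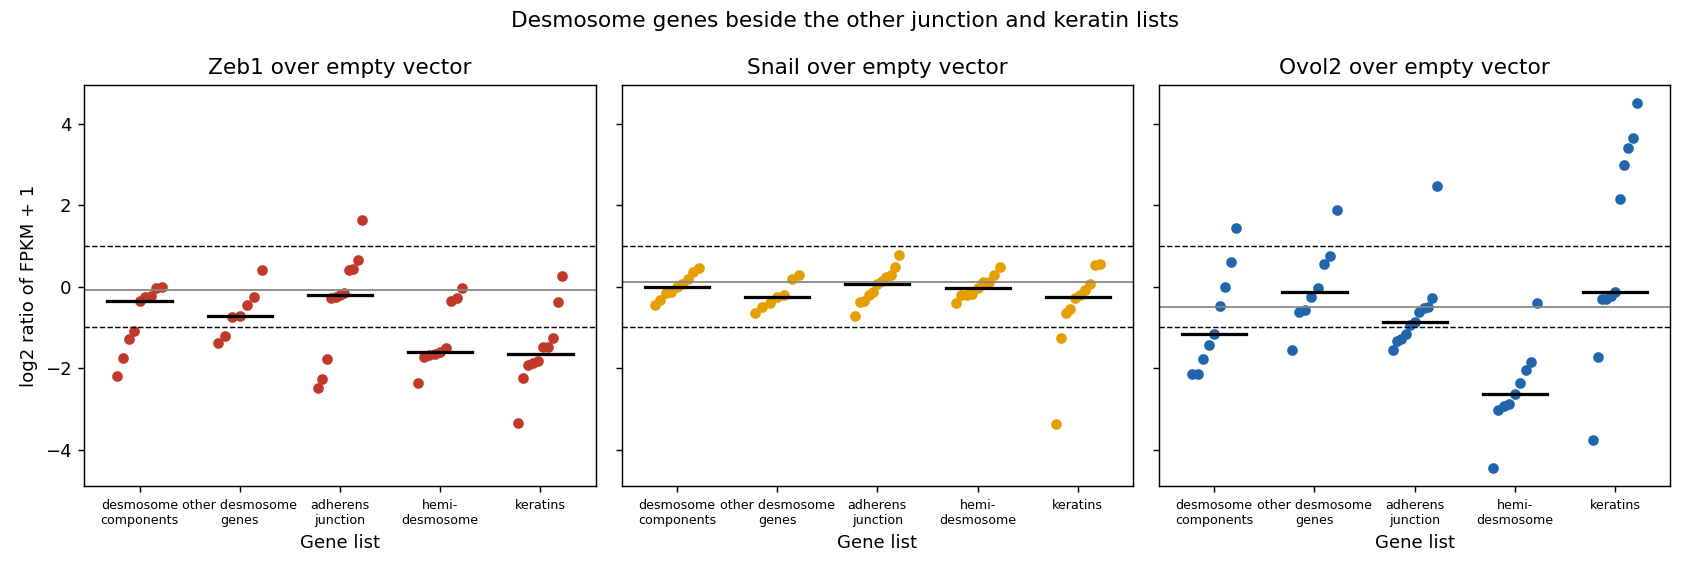
Log2 ratio of FPKM + 1 over the empty vector library for the genes that passed the filter in 5 lists, with black bars at list medians, grey lines at the median of all genes that passed and dashed lines at 2-fold. The medians of the desmosome components lie at -0.36 with Zeb1, -0.01 with Snail and -1.17 with Ovol2, and those of the hemidesmosome list at -1.61, -0.03 and -2.63.

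Transcription factors that have been tied to epithelial junction genes were read out as levels only, and their part in the desmosome values was not tested. The 3 delivered factors were highest where they were delivered, ZEB1 at 17.3 FPKM with Zeb1 against 0.260 with the empty vector, SNAI1 at 99.7 with Snail against 0.152, and OVOL2 at 78.3 with Ovol2 against 6.32. TP63 is a regulator of basal epithelial genes that include PERP. It was at 4.06 FPKM with Zeb1, 15.7 with Snail, 8.23 with Ovol2 and 23.9 with the empty vector. TP63 and PERP were each below the empty vector with Zeb1 and with Snail, and with Ovol2 TP63 was below it and PERP above it. GRHL1, a grainyhead-like factor shown in the mouse to bind the Dsg1 promoter, was at 0.156 FPKM with Zeb1, 0.311 with Snail, 14.5 with Ovol2 and 0.689 with the empty vector. In that order GRHL3 was at 0.118, 0.241, 6.21 and 0.567 FPKM, and GRHL2 at 2.26, 12.4, 8.92 and 14.5 FPKM. KLF4 was at 6.51, 14.9, 8.73 and 14.9 FPKM, KLF5 at 23.5, 39.5, 32 and 41.4 FPKM, and SNAI2 at 59.1, 47.0, 22.6 and 40.9 FPKM.

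The patterns of the genes across the 3 factors were compared with that of DSP by the root mean square difference of their log2 ratios, over 3 ratios that share the empty vector library. Of the other desmosome components DSG3 was closest (0.27) and PERP farthest (1.73). Among 8221 genes outside the lists with at least 5 FPKM in some library, the closest were LDHB, a lactate dehydrogenase subunit (0.0333), TMEM97 (0.0590), TIMP3, a metalloproteinase inhibitor (0.0620), DFNA5 (0.0736) and RNF144B (0.0859). LDHB stood at 156 FPKM in the Zeb1, 366 in the Snail, 116 in the Ovol2 and 321 in the empty vector library. Nothing on shared function or control is drawn from these distances.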

How the data were processed

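Messenger RNA was measured by RNA sequencing in 4 libraries, 1 each for Zeb1, Snail, Ovol2 and the empty vector. The authors deposited 3 tables, each with the empty vector beside 1 factor, of 25360 rows and 25317 gene symbols. Per the submitters' processing notes, TopHat, Cufflinks and Cuffdiff were used with the hg19 build. No version, annotation or strand setting is named there. No header states a unit, and the authors' values were read as FPKM from the tools named and from how they behave. A signed fold, as the authors deposited it, stands beside the values in each table, with no test or error, and served only as an alternative. The 3 tables repeat 1 empty vector library.

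Rows that repeat a symbol were summed. The measure was the log2 ratio of FPKM + 1, for genes that reached 1 FPKM in at least 1 of the libraries compared, with a call at 2-fold. Depth came from the most frequent step between low values over single-transcript genes, and approximate fragments from it and the longest GENCODE 29 transcript of each symbol (89.8% of symbols matched). Intervals are exact binomial (Clopper-Pearson, 95%) and cover counting error only. Python 3.11.15, pandas 2.3.3, scipy 1.17.1 and statsmodels 0.14.6 were used. The calls were also run on simulated data with counting noise only, equal depth and changes larger than the threshold. That run does not check calls near 2-fold, at low levels or under a difference in scale between libraries. The named genes were the 10 desmosome components, the other desmosome genes, the ends (lowest and highest pair) of the junction and keratin lists in comparisons with the empty vector, regulators at 1 FPKM or more in some library, antisense neighbours and the 5 genes closest to DSP. The members and lists were chosen with earlier results of these data known. Alternatives were a pseudocount of 0.1, a minimum of 5 FPKM or none, median centring, upper quartile scaling, rescaling without RMRP and RPPH1, a correction for transcript length, the highest row of a repeated symbol, the authors' fold, and calls at 1.5-fold and 3-fold. Protein identity between paralogues was not computed. A regulator that the rule would name is not reported here.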

Additional observations from a re-analysis of the deposited data

How the results depend on the processing

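No paired analysis was possible because each group is 1 library, and for the same reason no replicate could be left out. Of 1645 recomputed gene values 0 reversed a called direction, but values with no call had none to reverse. A minimum of 5 FPKM, no minimum and the highest row of a repeated symbol left the gene values as they were. Sizes were less stable under rescaling of the libraries. With upper quartile scaling 162 values were counted as moved and 26 as the same. With rescaling without RMRP and RPPH1 these were 156 and 33, and with centring 155 and 34. Of 126 recomputed counts of desmosome genes, 112 stayed within 1.5 times the count reported. The other 14 are as follows. Rescaling without RMRP and RPPH1 left 2 genes lower with Zeb1 against the empty vector and 2 with Zeb1 against Snail, PKP3 and PERP each time. Upper quartile scaling gave 3 lower and 2 higher with Ovol2 against the empty vector, and 2 lower and 3 higher with Ovol2 against Snail. The length correction gave 3 lower with Ovol2 against the empty vector, and 3 lower and 2 higher with Ovol2 against Snail. A 3-fold threshold gave 2 lower with Zeb1 and 3 lower and 0 higher with Ovol2 against the empty vector, and 1 lower with Zeb1 against Snail. A 1.5-fold threshold gave 2 higher with Ovol2 against the empty vector.

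With Ovol2 against the empty vector the median of all genes was -0.51 as reported, 0.03 with upper quartile scaling, -0.34 with centring and -0.79 with rescaling without RMRP and RPPH1, and with Zeb1 it was -0.09 as reported and 0.22 with that rescaling. Of all genes, 2965 were lower and 806 higher with Ovol2 as reported, against 1262 and 1993 with upper quartile scaling and 5699 and 858 with rescaling. The higher share of all calls with Ovol2 was 21.4% as reported, 61.2% with upper quartile scaling and 32.8% with centring. With Zeb1 it was 34.8% as reported, 48.1% with centring and 63.7% with rescaling, and with Snail 40.1% as reported, 23.7% with centring, 26.1% with upper quartile scaling and 50.4% with the length correction. For Zeb1 against Snail it was 26.7% as reported and 59.6% with centring, for Ovol2 against Zeb1 33.4% and 57.8% with upper quartile scaling, and for Ovol2 against Snail 21.4% and 62.4% with upper quartile scaling. The cause was not tested. Depth limits PKP1, DSG1, DSG4 and DSC1, which rest on few fragments in most libraries.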
